A study of Homo sapiens with 6 samples.

Results

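Antisense long noncoding RNAs that carry the name of a protein-coding gene followed by -AS1 were set beside the sense gene they are named for, in wild-type (WT) K562 cells and in K562 cells of the RUNX1 R320* genotype. Members were the lncRNA rows of the deposited RPKM table (reads scaled to transcript length and to library size) whose name ended in -AS1, whose stem was a protein-coding row, and which reached an RPKM of 0.5 in at least 3 of the 6 libraries. Of 1101 lncRNA rows ending in -AS1, 1080 had a protein-coding row of the stem, and 406 of these reached the threshold. The other 674 did not, and 325 of them were listed at 0 in every library. The members were thus chosen by their RPKM level in these libraries, not by the size or sign of a change. An exception is 8 members that passed in 1 genotype only, 6 through the R320* libraries and 2 through WT, whose difference is a consequence of the rule and is given as a description. The sense gene passed the same filter in 345 pairs and was not tested in 61. Of the 345 sense genes, 3 passed through the R320* libraries alone and 1 through WT alone, and the values of those named are also given as a description.

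K562 is a line of human leukemia cells that resemble erythroid and megakaryocytic precursors, and the transcription factor RUNX1 acts in the making of blood cells. There were 3 WT and 3 R320* libraries of total RNA; R320* stands for a stop codon in place of an arginine codon of RUNX1. The sources used here do not say how the change was made, whether the R320* cells are 1 clone or whether replicates are separate cultures, so p-values measure the spread between these libraries only. RUNX1 itself was at 22.7 ± 1.78 RPKM in WT and 52.5 ± 1.86 in R320* (mean ± SD, n = 3 each), and gene-level values do not show the base change.

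A natural antisense transcript is made from the strand opposite to a coding gene. Some start beside the promoter of the coding gene and run away from it, some start inside the gene, and others start past its end and run toward it. Such transcripts are often kept in the nucleus, many are short-lived, and individual cases are known to raise or lower the output of the sense gene, while others have no known effect on it. All 406 members lay on the strand opposite to their sense gene. The library kit named in the labels is not described as strand-specific, and the use of strand in counting is not given, so reads from a stretch that both genes cover cannot be assigned to one of them with certainty. In the GENCODE 29 annotation of GRCh38, 289 members shared at least 1 exonic base with their sense gene and 117 shared none.

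The antisense RNAs were low next to their sense genes. Their mean RPKM over the 6 libraries ran from 0.383 to 67.3 with a median of 2.55, against a median of 13.3 for the sense genes. For comparison, the median was 1.75 over all lncRNA rows tested and 15.3 over all protein-coding rows tested. Mean RPKM was at least 10 in 72 members and below 2 in 177. Where the sense gene was tested, the median antisense level was 17.3% of the sense level, and the antisense exceeded the sense gene in 59 of those pairs. Summed, the members took 0.317 to 0.336% of all RPKM in WT, a range that overlaps with the 0.326 to 0.347% of R320*. The antisense values varied more between replicates: the median SD between WT replicates was 0.25 on the log2 scale for the members and 0.10 for the tested sense genes.

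Most antisense RNAs did not pass the test. In R320* 29 were called higher and 38 lower, and 339 were not called (limma on log2(RPKM + 0.1), Benjamini-Hochberg adjusted p under 0.05 over all 17769 rows tested; 36 of the 339 had an unadjusted p under 0.05). The 67 calls stand against 31.9% of all rows tested (15.1% higher and 16.8% lower). The same fit called 17.3% of lncRNA rows (7.24% higher and 10.1% lower) and 38.9% of protein-coding rows (18.7% higher and 20.2% lower). The libraries of the genotypes did not overlap for 131 members, against 47.0% of all rows. Called antisense changes had a median size of 0.90 on the log2 scale, and 32 were at least 1 in size (12 higher and 20 lower). Among the sense genes, 70 were called higher, 62 lower and 213 were not called, with a median size of 0.43 among the called. Because the antisense values varied more between replicates, a larger change was needed for a call. The sizes among called antisense and called sense genes are therefore not comparable. The median log2 fold change was 0.05 over the members, 0.02 over their sense genes and 0.01 over all rows tested. With the RPKM columns rescaled to the same sum, 41 antisense were called higher and 35 lower, so the balance of directions among the antisense calls rests on the scaling.

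When both members of a pair were called, they were called in the same direction in 29 pairs and in opposite directions in 3. Both genes were called higher in 13 of the 29 pairs and lower in 16. In 4 of the 29 pairs (those of CELF2, GATA6, LINGO1 and ZNF528) the antisense had passed the filter in 1 genotype only. Without the 11 pairs in which the antisense or the tested sense gene had done so, 25 pairs were called in the same direction (10 higher and 15 lower) and 3 in opposite directions, an alternative chosen after seeing the data. The antisense alone was called in 29 pairs, the sense gene alone in 100, and neither in 184. The changes had the same sign in 207 of the 345 pairs (60%), including 45 of the 61 with a called antisense and 99 of the 184 with neither called. Across the 345 pairs Pearson's r between the antisense and the sense change was 0.53 and Spearman's rho was 0.39. This is a description across genes, which share the same 6 libraries and, in overlapping pairs, possibly reads. A direct test of the difference between the antisense and the sense change (limma on the log2 ratio of the pair in each library, adjusted over all rows) called 54 pairs, 28 with the larger value in the antisense and 26 with the larger value in the sense gene. That is 15.7% of the pairs (8.12% and 7.54%), where 27.9% of the rows of that fit were called for their own change (12.9% higher and 14.9% lower). The called differences comprised 7 of the same-direction pairs, all 3 opposite pairs, 17 with the antisense alone called, 18 with the sense gene alone called and 9 with neither called. The count of called differences fell to 29 without WT replicate 2, 30 without WT replicate 3, 23 without R320* replicate 2 and 27 without R320* replicate 3. Opposite pairs numbered 1 without WT replicate 1 and 5 without R320* replicate 1.

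**Figure D1:**
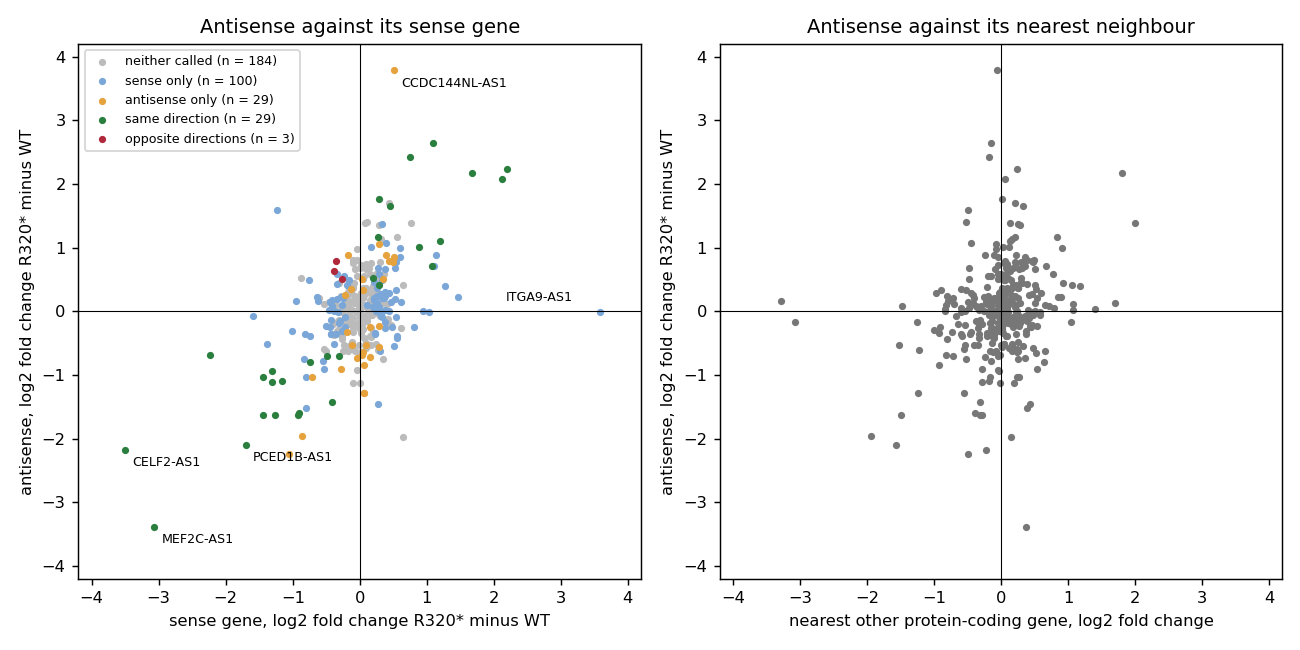
Left, log2 fold change (R320* minus WT) of each antisense RNA against that of its sense gene for 345 pairs, coloured by which of both genes was called. Right, the same antisense changes against the nearest other protein-coding gene; same-direction pairs on the left lie at the lower left and upper right by definition, and the right panel has Pearson's r of 0.23.

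MEF2C-AS1 had the largest fall of all members on the log2(RPKM + 0.1) scale, and MEF2C fell with it. IGFL2-AS1, which passed the filter through WT alone, was close behind at -3.37. MEF2C is a MADS-box transcription factor that acts in myeloid and lymphoid cells as well as muscle and neurons. MEF2C-AS1 (ENSG00000248309, chr5:88883328-89466398, plus strand) starts inside MEF2C and shares 422 exonic bases with it. Its RPKM was 8.27, 6.59 and 7.08 in the WT libraries and 1.40, 0.256 and 0.569 in R320*. MEF2C itself was at 23.4, 19.8 and 19.3 in WT and 2.66, 2.53 and 2.01 in R320*. Every R320* library lay below every WT library for both genes. The log2 fold change was -3.38 (SE 0.49, adjusted p = 0.00254) for the antisense and -3.07 (SE 0.14, adjusted p = 2.21e-05) for MEF2C, and the difference between them did not pass the test (-0.31, SE 0.51, adjusted p = 0.70).

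CELF2, an RNA-binding regulator of splicing, fell as well, and CELF2-AS1 was lower in R320*. CELF2-AS1 (ENSG00000181800, chr10:11316834-11319884) starts inside CELF2, shares no exonic base with it, and passed the threshold through WT alone. It was at 1.1, 0.954 and 0.535 RPKM in WT and at 0.0857, 0.118 and 0.115 in R320*, which is a description, since the rule required one genotype to be high. CELF2 was at 49.5, 50.1 and 46.8 in WT and 4.43, 4.35 and 3.90 in R320*, a log2 fold change of -3.50 (SE 0.07, adjusted p = 2.26e-06). PCED1B-AS1 was at 4.02, 6.04 and 4.05 RPKM in WT and 1.21, 1.11 and 0.749 in R320*. Its log2 fold change was -2.09 (adjusted p = 0.00115), beside -1.71 for PCED1B (24.5 ± 0.58 RPKM in WT and 7.44 ± 0.45 in R320*, adjusted p = 1.58e-05). The genotypes did not overlap for either gene of this pair.

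EPB41L4A-AS1, one of the most abundant members and the host of a small nucleolar RNA, fell less than its sense gene. EPB41L4A-AS1 (chr5:112160526-112164276) was at 78.3, 80.0 and 76.9 RPKM in WT and 50.1, 58.4 and 40.2 in R320*. EPB41L4A, which codes for a FERM-domain protein, was at 1.99, 1.99 and 3.98 in WT and 0.452, 0.508 and 0.405 in R320*. Both were lower in every R320* library. The log2 fold changes were -0.68 (adjusted p = 0.00697) and -2.24 (adjusted p = 0.00265), a difference of 1.56 (SE 0.31, adjusted p = 0.0192). That difference was not called with a pseudocount of 1 (0.62), in the normalized counts (0.36, adjusted p = 0.0556) or without any 1 of the R320* libraries. The pair shares 1659 exonic bases, 49.6% of the antisense exons.

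**Figure D2:**
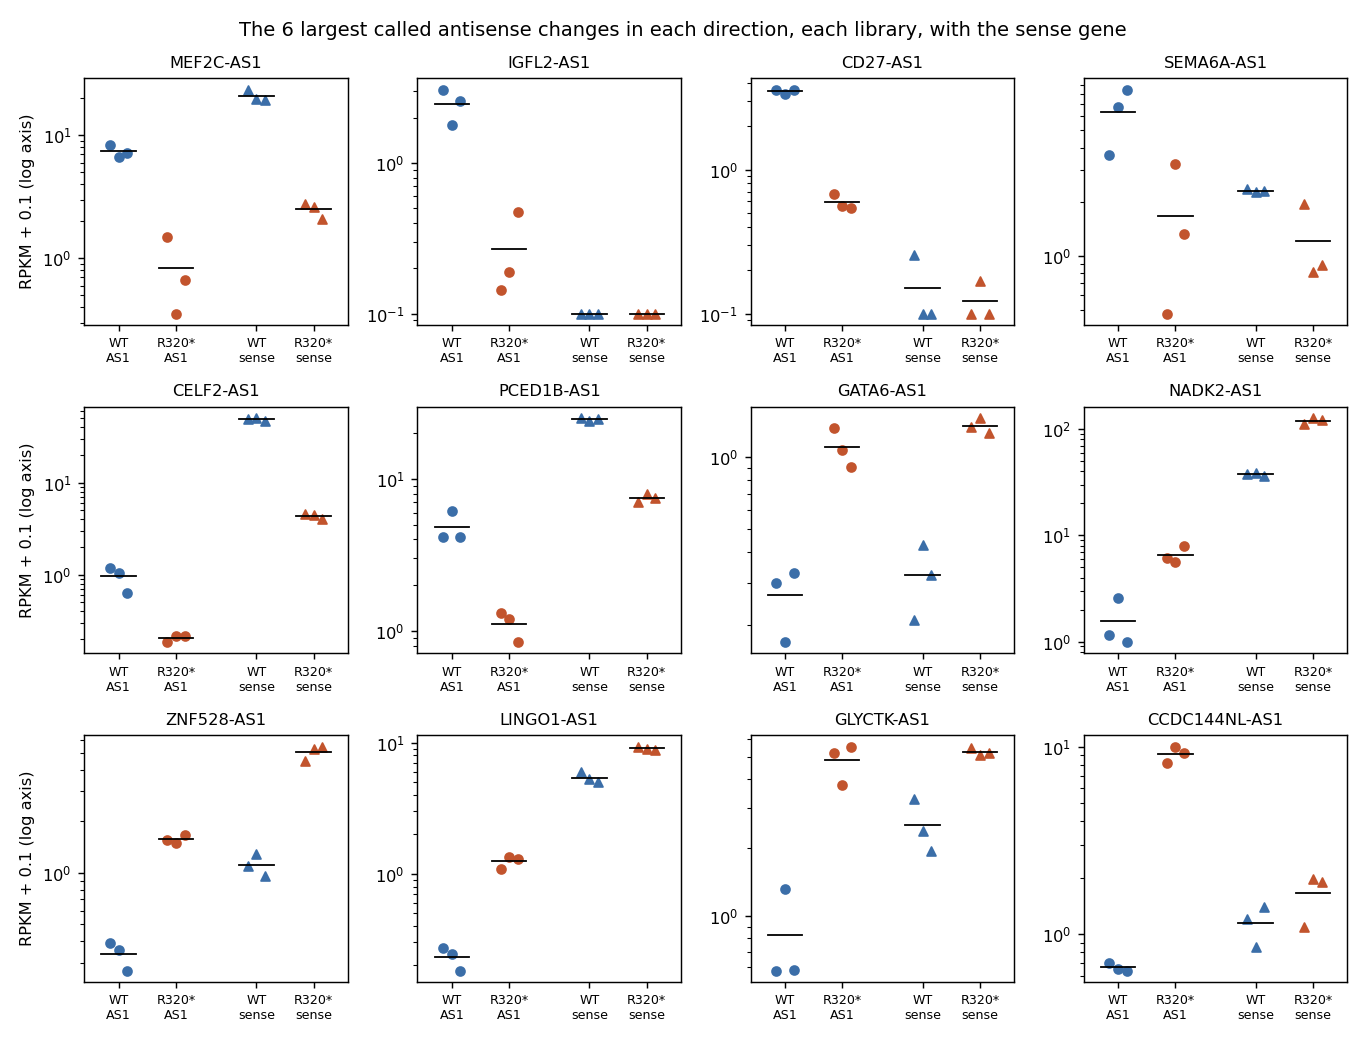
RPKM + 0.1 on a log axis in each library for the 6 called antisense RNAs with the largest fall and the 6 with the largest rise whose genotypes did not overlap (circles), with their sense genes (triangles); blue points are WT, orange points R320*, and lines are means of 3 libraries. MEF2C-AS1, CELF2-AS1 and PCED1B-AS1 are low in R320* together with their sense genes, IGFL2 is listed at 0 in all 6 libraries, and the CCDC144NL values of the genotypes overlap.

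ZNF528 rose in R320*, where ZNF528-AS1 was also higher, and their start sites in the deposited table lie 66 bases apart. ZNF528 codes for a zinc-finger protein. ZNF528-AS1 (ENSG00000269834, minus strand) spans chr19:52388842-52397766 in GENCODE 29, the source of the spans given for other genes too, and starts at 52397783 in the deposited table. It was at 0.288, 0.257 and 0.169 RPKM in WT and 1.46, 1.40 and 1.56 in R320*, and passed the threshold through R320* alone. ZNF528 was at 0.999, 1.19 and 0.859 in WT and 4.41, 5.15 and 5.36 in R320*, a log2 fold change of 2.19 (SE 0.18, adjusted p = 0.000246), beside 2.23 for the antisense. The difference within the pair was 0.04, a description that depends on the scale: it was -0.57 with a pseudocount of 1 and 1.36 in the normalized counts. GATA6, a zinc-finger transcription factor of endoderm and heart, and GATA6-AS1 were also arranged head-to-head, with starts 486 bases apart. GATA6-AS1 was at 0.199, 0.0698 and 0.227 RPKM in WT and 1.21, 0.961 and 0.803 in R320*, again through R320* alone. GATA6 was at 0.110, 0.331 and 0.222 in WT and 1.22, 1.35 and 1.15 in R320* (log2 fold change 2.12), and it too passed through R320* alone. Both were near 1 RPKM even where they were high.

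NADK2, the mitochondrial NAD kinase, and NADK2-AS1 rose together at a much higher sense level. NADK2-AS1 (chr5:36221055-36221902, plus strand), which starts inside NADK2 and shares no exonic base with it, was at 1.06, 2.46 and 0.889 RPKM in WT and 6.01, 5.45 and 7.81 in R320*. NADK2 was at 37.9, 38.8 and 35.7 in WT and 111, 127 and 121 in the R320* libraries. The genotypes did not overlap for either gene, with log2 fold changes of 2.17 (adjusted p = 0.0048) and 1.67 (adjusted p = 9.55e-06). The 3 other tested protein-coding genes within 1 Mb had a median log2 fold change of 1.80, so the neighbourhood was higher as a whole; its part in the pair's change was not tested. SLC2A1, the glucose transporter GLUT1, also rose with its antisense, a pair singled out after its values were seen. SLC2A1-AS1 was at 2.72, 2.94 and 2.87 RPKM in WT and 4.11, 4.76 and 5.32 in R320* (log2 fold change 0.71, adjusted p = 0.00802), and SLC2A1 went from 54.5 ± 2.13 to 115 ± 6.66 (1.08, adjusted p = 3.88e-05).

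LINGO1 and GLYCTK rose in R320*, where the values of their antisense RNAs were higher as well. LINGO1-AS1 (chr15:77641764-77652288), inside the gene of a transmembrane protein of neurons, was at 0.171, 0.145 and 0.0831 RPKM in WT and 0.993, 1.24 and 1.20 in R320*, and passed the threshold through R320* alone. LINGO1 was at 5.85, 5.20 and 4.88 in WT and 9.24, 8.93 and 8.74 in R320*, a log2 fold change of 0.75 (adjusted p = 0.00164) beside 2.43 for the antisense. The difference within the pair was 1.68, and 0.26 with a pseudocount of 1, again a description. GLYCTK-AS1, which starts past the end of the glycerate kinase gene GLYCTK, was at 0.478, 1.22 and 0.482 RPKM in WT and 5.13, 3.69 and 5.46 in R320* (log2 fold change 2.65, adjusted p = 0.00213). GLYCTK was at 3.18, 2.26 and 1.83 in WT and 5.40, 5.01 and 5.09 in R320* (1.09, adjusted p = 0.00717), and the difference of 1.56 did not pass the test (adjusted p = 0.0554), but did without WT replicate 2 (1.98, adjusted p = 0.0233). GLYCTK-AS1 and GLYCTK share 432 exonic bases, and GLYCTK-AS1 is listed at 0 in all 6 libraries of the normalized count table.

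The 250 bases before the start of 4 of these transcripts are shown. ZNF528 is an example of neighbouring starts on opposite strands, and whether they share a promoter was not tested. NADK2-AS1, EPB41L4A-AS1 and LINGO1-AS1 are examples of starts that lie inside the sense gene. Windows were considered for called antisense RNAs of the named pairs, with a single chromosome left out, and for the sense gene ZNF528. Their RefSeq start had to equal the start in the deposited table, and they could hold no coding or UTR exon. This gave the antisense window in 5 pairs and the sense window in ZNF528. Of these 6 windows 4 are shown, chosen after their values were seen. Sequences are from RefSeq on GRCh38.p14, plus strand. In the ZNF528 window (chr19:52397599-52397848) capitals run over the 66 bases from the deposited start of ZNF528-AS1, which is read leftward, to the base before the start of ZNF528, which is read rightward. The NADK2-AS1 window is chr5:36220805-36221054, the EPB41L4A-AS1 window chr5:112160276-112160525 and the LINGO1-AS1 window chr15:77641514-77641763. In the EPB41L4A-AS1 window capitals mark ACCACA, the reverse complement of a motif of the type RUNX proteins bind.
ZNF528: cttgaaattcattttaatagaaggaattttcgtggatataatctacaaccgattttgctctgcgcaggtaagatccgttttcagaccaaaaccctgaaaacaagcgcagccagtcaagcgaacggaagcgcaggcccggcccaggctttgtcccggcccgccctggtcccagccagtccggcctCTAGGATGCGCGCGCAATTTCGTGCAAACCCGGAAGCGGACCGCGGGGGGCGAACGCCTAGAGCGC
NADK2-AS1: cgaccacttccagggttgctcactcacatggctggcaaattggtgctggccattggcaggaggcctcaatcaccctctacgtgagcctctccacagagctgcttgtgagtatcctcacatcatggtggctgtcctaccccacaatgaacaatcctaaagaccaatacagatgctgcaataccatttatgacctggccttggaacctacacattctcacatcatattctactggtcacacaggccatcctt
EPB41L4A-AS1: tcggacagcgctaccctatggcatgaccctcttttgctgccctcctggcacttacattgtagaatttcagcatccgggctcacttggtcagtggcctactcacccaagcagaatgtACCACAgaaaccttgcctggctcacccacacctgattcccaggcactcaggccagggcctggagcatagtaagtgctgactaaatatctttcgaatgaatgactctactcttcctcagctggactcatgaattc
LINGO1-AS1: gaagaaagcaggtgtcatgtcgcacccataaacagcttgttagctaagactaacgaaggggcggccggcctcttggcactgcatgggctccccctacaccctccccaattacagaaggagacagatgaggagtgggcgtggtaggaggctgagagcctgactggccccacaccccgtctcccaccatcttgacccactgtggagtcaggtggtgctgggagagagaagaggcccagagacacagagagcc
The ZNF528 window is 56.8% G and C, and the windows of NADK2-AS1, EPB41L4A-AS1 and LINGO1-AS1 are 50.4%, 51.6% and 59.2%. The motifs TGTGGT and TGCGGT were searched on both strands in all RefSeq promoter windows (250 bases before to 50 after a start). A match stood in 19.6% of all 35116 windows, in 20.4% of the 333 windows of members and in 18.9% of the windows of their sense genes. Among called members it stood in 15.7% of 51 windows, close to or below the share of all windows. A match in letters does not show that a factor binds there.

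The 3 pairs called in opposite directions had a higher antisense and a lower sense gene. KDM4A, a histone lysine demethylase, was at 20.2, 20.9 and 20.6 RPKM in WT and 17.1, 17.2 and 16.8 in R320*, while KDM4A-AS1 was at 3.44, 4.49 and 4.31 in WT and 5.95, 5.22 and 6.38 in R320*. RUSC1 was at 27.3, 24.9 and 28.5 in WT and 22.0, 19.7 and 21.5 in R320*, while RUSC1-AS1 was at 9.29, 11.9 and 13.3 in WT and 19.6, 20.6 and 19.0 in R320*. TMEM9B was at 17.6, 17.3 and 17.3 in WT and 12.1, 13.1 and 14.5 in R320*, and TMEM9B-AS1 at 4.85, 5.55 and 4.12 in WT and 9.09, 7.59 and 6.15 in R320*. In none of the 6 genes did the genotypes overlap, but the antisense changes were modest. The difference within the pair was 0.78 (adjusted p = 0.012) for KDM4A, 1.14 (adjusted p = 0.00721) for RUSC1 and 1.03 (adjusted p = 0.0305) for TMEM9B. All 3 pairs share exonic bases, 464 for KDM4A, 398 for RUSC1 and 221 for TMEM9B, as do 248 of the 345 pairs tested. No opposite pair was found among the 97 without shared bases, but 3 opposite pairs are too few to relate to overlap.

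None of the 3 antisense calls was repeated in the normalized counts, where RUSC1-AS1 was too low to test and showed no rise. The calls of KDM4A-AS1 and TMEM9B-AS1 were also near the limit of the test, since leaving out any of several libraries lost them. Those of RUSC1 and RUSC1-AS1 in RPKM were kept without any 1 library. In the normalized counts the sense change was called again for KDM4A (-0.20, adjusted p = 0.00174), RUSC1 (-0.25, adjusted p = 0.00521) and TMEM9B (-0.46, adjusted p = 0.000258). The antisense change was not called there for KDM4A-AS1 (0.22, adjusted p = 0.349) or TMEM9B-AS1 (0.43, adjusted p = 0.0799). RUSC1-AS1 held only 5.46 ± 3.21 normalized counts in WT and 4.90 ± 3.61 in R320* and was not tested there, although its RPKM in R320* was close to that of RUSC1. The call of KDM4A-AS1 was lost without WT replicate 1, WT replicate 3, R320* replicate 1 or R320* replicate 3, with adjusted p between 0.0616 and 0.102. That of TMEM9B-AS1 was lost without WT replicate 1, WT replicate 3, R320* replicate 1 or R320* replicate 2 (adjusted p 0.0783 to 0.0935). The difference within the TMEM9B pair was lost without any 1 WT library or R320* replicate 1 or 2 (adjusted p 0.0575 to 0.0906).

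Among pairs in which the antisense alone was called, CCDC144NL-AS1 had the largest rise of all members. CCDC144NL-AS1 (ENSG00000233098, chr17:20868433-21002276) was at 0.603, 0.549 and 0.539 RPKM in WT and 8.14, 9.93 and 9.16 in R320*, a log2 fold change of 3.79 (SE 0.15, adjusted p = 1.53e-05) and a ratio of means of 16.1. CCDC144NL was at 1.1, 0.750 and 1.29 in WT and 0.991, 1.88 and 1.80 in R320*, with overlapping genotypes (0.51, adjusted p = 0.291). The normalized counts differed on the sense gene: there CCDC144NL went from 8.77 ± 5.03 to 95.4 ± 21.5 and was called (3.41, adjusted p = 2.11e-06), beside 22.0 ± 4.86 and 581 ± 35.7 for the antisense (4.68). In that table the difference within the pair was 1.27 and was not called (adjusted p = 0.0943), so whether this antisense moved alone depends on the table.

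Abundant antisense RNAs whose sense gene was not called were found in other pairs, named here after their values were seen. MAP3K14-AS1 was at 20.7, 18.3 and 16.5 RPKM in WT and 7.28, 8.09 and 7.08 in R320* (log2 fold change -1.29, adjusted p = 0.00023). MAP3K14, the kinase NIK of noncanonical NF-kB signalling, was at 2.01 ± 0.18 in WT and 2.09 ± 0.0847 in R320*, and the difference within the pair was -1.35 (SE 0.12, adjusted p = 0.00174). VPS9D1-AS1 was at 12.4, 14.4 and 14.2 RPKM in WT and 24.8, 26.4 and 24.5 in R320* (0.88, adjusted p = 0.000309), with VPS9D1 at 4.32 ± 0.53 and 3.80 ± 0.42 and a difference of 1.06 (adjusted p = 0.00467). TPT1-AS1 fell from 9.77 ± 1.30 to 5.85 ± 0.98 RPKM (-0.73, adjusted p = 0.0114), beside TPT1, the translationally controlled tumour protein, at 1345 ± 24.9 and 1312 ± 65.2. In the normalized counts the MAP3K14-AS1 change was -1.31, VPS9D1-AS1 0.94 and TPT1-AS1 -0.75, each called; MAP3K14 (0.12) and TPT1 (-0.01) were not called, and VPS9D1 was called higher (0.31, adjusted p = 0.000953). SEMA6A-AS1 had a large fall (-2.23, adjusted p = 0.0473) but uneven libraries, at 3.56, 6.68 and 8.35 RPKM in WT and 0.375, 3.14 and 1.21 in R320*. Its call was lost without WT replicate 1, 2 or 3 and without R320* replicate 1 or 3 (adjusted p 0.0586 to 0.134), and SEMA6A itself, a transmembrane semaphorin, was not called (-1.05, adjusted p = 0.0642). SEMA6A was called lower without R320* replicate 1 (-1.45, adjusted p = 0.00548) and in the normalized counts (-0.87, adjusted p = 0.00227).

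Of the 61 members whose sense gene was too low to test, 6 were called, beside 17.3% of lncRNA rows and 31.9% of all rows tested. IGFL2-AS1 was at 2.97, 1.68 and 2.49 RPKM in WT and 0.0443, 0.0900 and 0.369 in R320*, and passed through WT alone, with IGFL2, of the insulin-like growth factor-like family, listed at 0 throughout. CD27-AS1 was at 3.49, 3.26 and 3.44 RPKM in WT and 0.578, 0.459 and 0.445 in R320* (log2 fold change -2.56, SE 0.20, adjusted p = 0.000209). CD27, a costimulatory receptor of lymphocytes, did not exceed 0.154 RPKM in any library. The other 4 are named here after their values were seen. TMEM132D-AS1 fell from 36.6 ± 5.84 to 20.7 ± 1.86 RPKM (-0.81, adjusted p = 0.00383), with TMEM132D listed at 0 throughout, and HLA-F-AS1 fell from 3.42 ± 0.75 to 1.16 ± 0.38 (-1.51, adjusted p = 0.00895). FOXD3-AS1 (-1.58, adjusted p = 0.0391) and IDI2-AS1 (0.80, adjusted p = 0.0441) lost their calls in several settings. FOXD3-AS1 lost it without WT replicate 1 or 2 or R320* replicate 2 or 3 (adjusted p 0.0731 to 0.105), and IDI2-AS1 without WT replicate 1 or 3 or any 1 R320* library (0.0708 to 0.12). HLA-F-AS1 held almost no reads in the normalized counts (0.349 ± 0.60 in WT and 0 in R320*) and was not tested there.

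The reverse, a called sense gene beside an antisense that was not called, was the more frequent pattern with 100 pairs. Over all rows tested, 38.9% of protein-coding rows and 17.3% of lncRNA rows were called, so more sense than antisense calls is the general order. Among the 100 pairs ITGA9, the integrin alpha 9 subunit, had the largest difference in level. It passed the filter through R320* alone, so its values are a description. It was at 0.0332, 0.0315 and 0.0487 RPKM in WT and 1.55, 1.35 and 1.75 in R320* (log2 fold change 3.58). ITGA9-AS1 (chr3:37745432-37861780), which starts past the end of ITGA9, was at 7.59, 9.39 and 8.34 in WT and 8.48, 7.18 and 9.62 in R320*, with overlapping genotypes (-0.01, adjusted p = 0.974). In WT the antisense stood far above the sense gene, which was below the threshold, and ITGA9 remained lower than ITGA9-AS1 in R320*. In the normalized counts the log2 fold change was 4.11 for ITGA9 and 0.89 (adjusted p = 0.0573) for ITGA9-AS1.

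The next largest sense changes without an antisense call came from noisier rows. GFOD1 fell from 2.50 ± 0.40 to 0.765 ± 0.11 RPKM (-1.59, adjusted p = 0.00226), while GFOD1-AS1 ran from 0 to 3.08 within WT alone, so its change could not be resolved (SE 1.53). HAND2, a transcription factor of heart and limb, rose from 0.438 ± 0.15 to 1.41 ± 0.59 RPKM (1.46, adjusted p = 0.0326), with HAND2-AS1 at 1.79 ± 0.43 and 2.19 ± 0.94. The HAND2 call was lost without WT replicate 1, 2 or 3 or R320* replicate 1 or 3 (adjusted p 0.0557 to 0.0997). SDCBP2, the scaffold protein syntenin-2, passed the filter through WT alone and was at 0.713 ± 0.16 RPKM in WT and 0.211 ± 0.0664 in R320* (-1.39), with SDCBP2-AS1 at 8.74 ± 0.44 and 6.23 ± 1.52 (-0.50, adjusted p = 0.0594). Without R320* replicate 2 SDCBP2-AS1 was called lower (-0.69, adjusted p = 0.00608). MELTF, melanotransferrin, rose from 2.64 ± 1.17 to 6.19 ± 1.12 (1.27, adjusted p = 0.0231), a call lost without WT replicate 2 or R320* replicate 2 or 3 (0.0647 to 0.0762). MELTF-AS1 ran from 1.59 to 9.61 RPKM within WT, yet in the normalized counts it was called higher (0.84, adjusted p = 0.0024).

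Of the 4 most abundant members, EPB41L4A-AS1 was called in RPKM and the other 3 were not. THAP9-AS1 was at 66.3, 67.0 and 58.5 RPKM in WT and 72.3, 72.9 and 66.8 in R320* (log2 fold change 0.15, adjusted p = 0.146), although it was called after rescaling the columns to the same sum (0.22, adjusted p = 0.0473). THAP9, a protein derived from a transposase, stood at 3.88 ± 0.0421 in WT and 5.41 ± 0.77 in R320*. Its call (0.46, adjusted p = 0.0335) was lost without WT replicate 1, 2 or 3 or R320* replicate 1 or 3 (0.0632 to 0.0858). NUTM2A-AS1 was at 53.2 ± 3.57 in WT and 57.3 ± 0.88 in R320*, far above NUTM2A at 1.21 ± 0.0907 and 0.826 ± 0.26. THUMPD3-AS1, at 47.2 ± 2.77 and 45.5 ± 5.07, was the one of these RNAs at about the level of its sense gene, the tRNA methyltransferase component THUMPD3 (51.4 ± 1.86 and 52.7 ± 5.64). In the normalized counts THUMPD3-AS1 was called lower (-0.28, adjusted p = 0.00273). The within-pair differences called there were -0.33 for THUMPD3 (adjusted p = 0.00483), 0.50 for NUTM2A (adjusted p = 0.0201) and -0.42 for THAP9 (adjusted p = 0.0357).

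In several pairs the antisense was expressed over a sense gene that was close to 0. The highest ratios were those of RGPD4-AS1 (2.77 ± 1.17 RPKM in WT and 3.32 ± 0.46 in R320*), TSBP1-AS1 (8.19 ± 0.57 and 8.23 ± 0.47), EFCAB6-AS1 (2.59 ± 0.62 and 2.39 ± 0.0906) and LOXL1-AS1 (0.725 ± 0.37 and 1.03 ± 0.0953). Each of the 4 sense genes was above 0 in 1 library only, at 0.0752 RPKM or less, and none of the 4 antisense RNAs was called. LOXL1 codes for a lysyl oxidase of elastic fibres and RGPD4 for a member of a family of near-identical genes, whose values may be shared among copies.

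Of a list of 36 regulators of blood cell development, 5 had a member antisense, GATA2, MYB, ZEB1 and ZEB2 besides MEF2C. GATA2-AS1, which starts within the gene of GATA2, a zinc-finger factor of hematopoietic progenitors, was at 28.3, 27.4 and 26.1 RPKM in WT and 28.1, 28.0 and 26.5 in R320* (0.01, adjusted p = 0.897). GATA2 was at 80.4, 76.8 and 81.8 in WT and 89.4, 88.0 and 83.8 in R320* (0.13, adjusted p = 0.0664). The GATA2 values of the genotypes did not overlap and those of GATA2-AS1 did. In the normalized counts both were called slightly higher, by 0.28 (adjusted p = 0.00125) and 0.19 (adjusted p = 0.000279), and GATA2 was also called after rescaling the columns to the same sum (0.20) or to the same protein-coding median (0.16). MYB-AS1 (1.21 ± 0.042 and 1.23 ± 0.62 RPKM) and MYB (77.8 ± 5.05 and 81.0 ± 2.92), a factor of progenitor proliferation, were not called. Neither were ZEB1-AS1 (4.96 ± 0.98 and 5.35 ± 0.73), which exceeded ZEB1 (0.974 ± 0.34 and 1.29 ± 0.20), nor ZEB2-AS1 (0.597 ± 0.23 and 0.513 ± 0.14) with ZEB2 (17.0 ± 0.79 and 13.8 ± 2.72). The normalized counts called ZEB1 higher (0.59, adjusted p = 0.00727) and ZEB2 lower (-0.35, adjusted p = 4.82e-05), and ZEB2 was also called lower in RPKM without R320* replicate 1 (-0.48, adjusted p = 0.00853).

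A neighbouring gene shared less of the antisense change than the sense gene did, in these descriptions. Over the 342 pairs with a tested sense gene and another tested protein-coding gene within 1 Mb, Pearson's r with the antisense change was 0.54 for the sense gene and 0.23 for the nearest other protein-coding gene (Spearman's rho 0.40 and 0.23). That neighbour lay at a median distance of 42169.5 bases. Antisense and neighbour were called in the same direction in 22 pairs and in opposite directions in 7, against 29 and 3 for antisense and sense. Of the 29 same-direction pairs, 21 lay among neighbours within 1 Mb whose median change had the same sign, and in 23 both genes changed by more than that median. Those 29 pairs were picked because both genes were called, and the neighbours were not picked by their change. The 23 is therefore largely set by that choice and is a description. These values share libraries, and the difference between them was not tested.

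On chromosome 12, 7 of 16 members were called lower and 0 higher, and 5 pairs fell together; 10.1% of lncRNA rows and 16.8% of all rows were called lower. The median change of the neighbouring genes of those 16 members was -0.39, so other genes there were lower too; its part in these changes was not tested. The 5 pairs were PCED1B and, named after their values were seen, SOCS2, MAPKAPK5, PPP1R12A and TMPO. SOCS2-AS1 was at 16.1, 16.1 and 13.4 RPKM in WT and 5.15, 3.81 and 5.83 in R320* (log2 fold change -1.62, adjusted p = 0.000629), and SOCS2, a suppressor of cytokine signalling, fell from 153 ± 3.0 to 56.4 ± 1.19 (-1.44, adjusted p = 2.55e-06). MAPKAPK5-AS1 was at 28.8, 25.9 and 26.1 in WT and 10.3, 8.93 and 10.8 in R320* (-1.42, adjusted p = 8.31e-05). The protein kinase gene MAPKAPK5 fell less, from 26.8 ± 1.83 to 19.9 ± 0.89 (-0.42), and the difference of -1.0 was called (SE 0.11, adjusted p = 0.00393). PPP1R12A, the targeting subunit of myosin phosphatase, changed by -1.31 and its antisense by -1.1, and TMPO, a nuclear lamina protein, by -0.49 and its antisense by -0.70. The PPP1R12A-AS1 call was lost without WT replicate 1 or 3 or R320* replicate 1 or 3 (adjusted p 0.0542 to 0.0882). On chromosome 5, 4 of 20 members were called lower and 1 higher, and the pairs of MEF2C, EPB41L4A and MAST4 fell together while NADK2 rose with its antisense. MAST4-AS1 changed by -0.93 and the kinase gene MAST4 by -1.30, and in the normalized counts the antisense was not called (-0.66, adjusted p = 0.051). The median neighbour change over the 20 members was -0.06.

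By position, 133 members were head-to-head with their sense gene (starts at most 1000 bases apart), 146 started within the sense gene, 125 started past its 3′ end and 2 started farther upstream. Called together in the same direction were 7 of 129 tested head-to-head pairs (5.43%), 17 of 121 pairs with the antisense starting within the sense gene (14%) and 5 of 93 with it starting past the 3′ end (5.38%). Each arrangement held 1 of the 3 opposite pairs. Pearson's r between the changes was 0.57, 0.62 and 0.27 in that order, Spearman's rho was 0.34, 0.51 and 0.28, and the differences between arrangements were not tested. Pairs with a gene that passed the filter in 1 genotype only are kept in these counts and correlations, which are therefore a description. The start used was the one in the deposited table; with any annotated start taken, 241 members had one within 1000 bases of a start of the sense gene, 95 of them among those listed as starting within it. Same-direction calls also occurred in pairs that share no annotated exonic base. In the 97 tested pairs without shared exonic bases 10 were called in the same direction and 0 in opposite directions, with r of 0.67, and in the 248 with shared bases 19 and 3, with r of 0.46. Among the named pairs, CELF2, NADK2, LINGO1 and ZNF528 belong to those without shared exonic bases. The antisense RNAs of CELF2, LINGO1 and ZNF528 passed the filter in 1 genotype only. These pairs are kept in the 10 and in the r of 0.67, which are therefore a description.

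**Figure D3:**
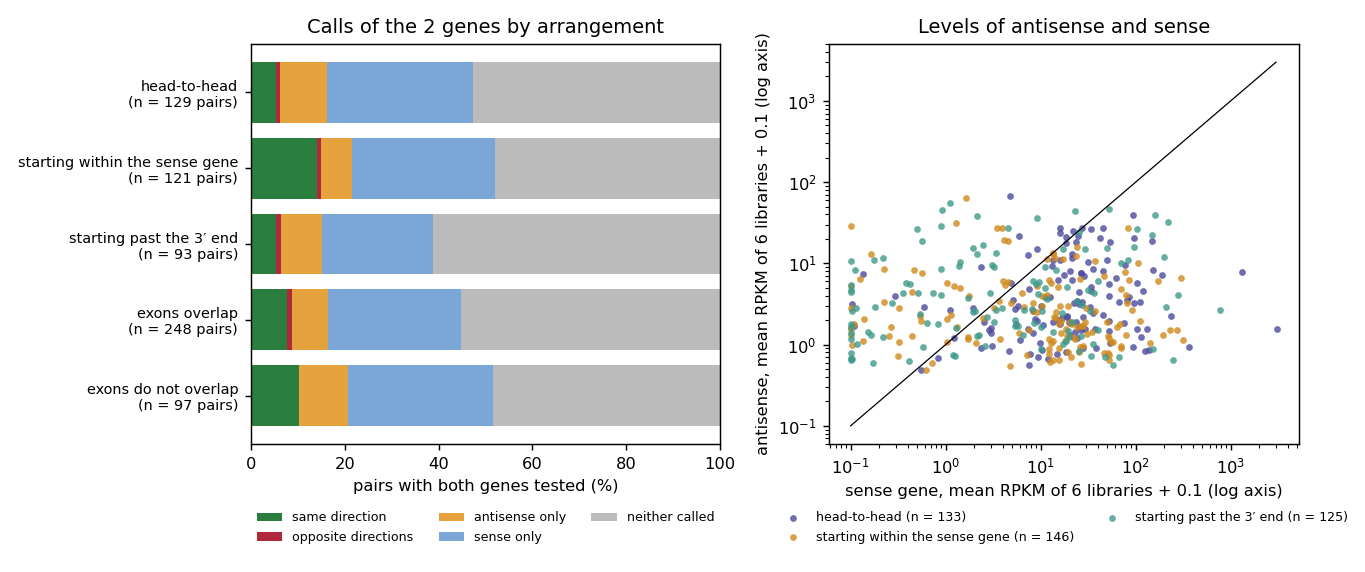
Left, share of tested pairs (%) by which of both genes was called, for the 3 main arrangements and, separately, for the same pairs divided by exon overlap. Right, mean RPKM + 0.1 of the antisense against that of the sense gene on log axes, 1 point per pair with the line of equal levels; most points lie below the line (287 of 406 pairs).

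The normalized count table gave a second view of the same libraries, not an independent sample. Of the 406 members 316 matched it by symbol and 245 passed a minimum of 10 normalized counts in at least 3 libraries. Over those 245 the antisense change had the same sign in both tables in 207, with Pearson's r of 0.89 across genes. Of the 67 antisense called in RPKM, 52 were tested in the normalized counts and 39 were called there, all 39 in the same direction, 5 of them members that had passed in 1 genotype only. That table called 53.7% of all its rows tested (26.4% higher and 27.4% lower). The 39 include MEF2C-AS1 (-3.46) and PCED1B-AS1 (-2.31). Over the 231 pairs tested there, r between the antisense and the sense change was 0.74, and 0.59 for the RPKM of the same pairs. The tables disagreed on the level of some members: 20 matched members held 0 normalized counts in all 6 libraries, EFCAB6-AS1, TSBP1-AS1 and GLYCTK-AS1 among them, although they reached the RPKM threshold.

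**Figure D4:**
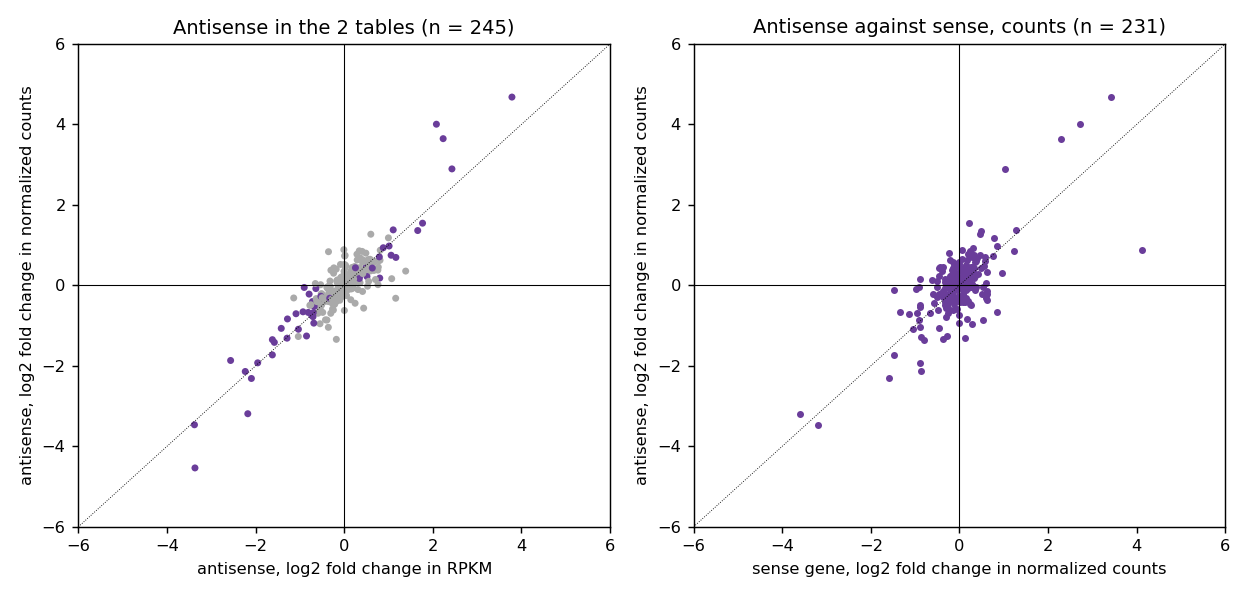
Left, log2 fold change (R320* minus WT) of 245 antisense RNAs in normalized counts against RPKM, with those called in RPKM in purple and others in grey. Right, the antisense change against the sense change in normalized counts for 231 pairs; the dotted line marks equal values, and 1 pair far right of the rest is ITGA9 with ITGA9-AS1 (4.11 and 0.89).

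Genes that process or degrade antisense and other noncoding RNA were read against all protein-coding rows, of which 18.7% were called higher and 20.2% lower. The nuclear exosome is a complex of 3′ to 5′ ribonucleases that removes many short-lived nuclear RNAs with the help of adaptor proteins. Of 24 exosome and adaptor genes, 11 were called higher and 2 were called lower; the median change over the list was 0.15 (log2). EXOSC7, a core subunit, rose from 59.3 ± 2.27 to 82.7 ± 4.17 RPKM (0.48, adjusted p = 0.000771), and the catalytic subunit DIS3 rose from 14.7 ± 0.13 to 20.1 ± 0.64 (0.46, adjusted p = 0.00113). Both called lower were adaptors, ZCCHC8 (29.7 ± 1.07 and 18.0 ± 0.90, -0.72, adjusted p = 0.00026) and ZFC3H1 (37.6 ± 1.52 and 27.5 ± 1.67, -0.45, adjusted p = 0.00198). Other genes outside the exosome itself were called higher, MPHOSPH6 (0.28), MTREX (0.26), ZC3H18 (0.18) and PABPN1 (0.11). Of 14 tested subunits of Integrator, which ends transcription of noncoding RNA, 4 were called higher and 0 lower (median 0.20). Of 19 cleavage and polyadenylation genes 6 were called higher and 0 lower (median 0.05), CPSF1 with the largest change (90.0 ± 6.02 and 146 ± 9.93, 0.70). The genes named from these lists were chosen after their values were seen.

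Markers of the labelled cell line were expressed in every library. All 10 erythroid and megakaryocytic markers were tested, 6 were called higher and 3 lower, where 38.9% of protein-coding rows were called, and their summed RPKM was 11307 to 11641 in WT and 15384 to 17667 in R320*. Most of that sum came from the fetal globin genes HBG1 (2583 and 4439, means in WT and R320*) and HBG2 (7544 and 10541). Lower were the erythroid factors GATA1 (-0.64) and NFE2 (-1.06) and the embryonic globin gene HBE1 (-0.80). Of 12 markers of other cell types 6 passed the filter, 1 was called higher and 2 lower, none was at 0 in all libraries, and their sum was 92.9 to 102 in WT and 140 to 160 in R320*. Most of that sum came from EPCAM (54.9 ± 5.36 and 126 ± 9.71), and PTPRC, the leukocyte antigen CD45, fell from 15.5 ± 1.11 to 0.683 ± 0.0648 (-4.32, adjusted p = 4.63e-06). The part of these changes in the antisense results was not tested. In bulk RNA, fewer cells with a transcript and less of it per cell cannot be told apart. Across tested rows, Pearson's r between libraries was 0.955 to 0.959 for libraries of the same genotype and 0.919 to 0.929 for libraries of different genotypes.

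The rows beside the threshold were uneven between replicates. PRRT3-AS1, just inside it, was at 0, 0.501 and 0.671 RPKM in WT and 0.163, 0.963 and 0 in R320*, and NOP53-AS1 at 0.372, 0.856 and 0.710 and at 0.507, 0.339 and 0.475. Just outside, FLNC-AS1 was at 0.179, 0.167 and 0.846 in WT and 0.493, 0.501 and 0.152 in R320*, and ACBD3-AS1 at 0.742, 0.479 and 0 and at 0, 0.463 and 0.667. In all 4 the genotypes overlapped. NOP53, a ribosome assembly factor, was expressed at 245 ± 11.6 and 255 ± 16.9 RPKM beside NOP53-AS1, which shows how far the levels in a pair can lie apart.

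Transcripts named for a gene by other conventions were antisense -AS2 to -AS9, divergent -DT and intronic -IT1. The name -IT1 does not mark an antisense transcript, so this set is mixed. It gave 94 rows that passed the same filter, of which 3 were called higher and 10 lower, beside 7.24% and 10.1% of lncRNA rows. Of their 86 tested pairs 6 were called in the same direction and 1 in opposite directions, with Pearson's r of 0.34 between the changes. The difference from the -AS1 pairs was not tested.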

How the data were processed

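RNA-seq of 6 K562 libraries (3 WT, 3 R320*) was used as deposited. The deposited RPKM values, in 60131 rows, and the deposited normalized counts (a depth-scaled signal, 28395 identifiers) were made by the authors from the same libraries. HISAT2, featureCounts, Salmon and DESeq2 with hg38 are named, per the submitters' processing notes; the sources used here do not give their versions, the annotation release or the tool behind each table. RPKM columns summed to 721735 to 786389, so the depth behind them is unknown, and an exact 0 may be a failed estimate. Normalized count columns summed to 29831668 to 30503843 after scaling.

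The 17769 rows with an RPKM of at least 0.5 in at least 3 libraries were tested with limma 3.58.1 in R 4.3.3 (intensity trend) on log2(RPKM + 0.1), with Benjamini-Hochberg adjustment over all of them. A row was called at an adjusted p under 0.05. Fold changes are on the log2(RPKM + 0.1) scale, which understates the change of low genes. Within-pair differences were fitted without the trend as further rows of the whole matrix. Normalized counts were matched by RefSeq symbol (27745 identifiers) and tested on log2(count + 1) where at least 10 in 3 libraries, 14299 rows. The procedure was tested on simulated data. Figures and summaries used Python 3.11.15, NumPy 2.4.6, pandas 2.3.3 and matplotlib 3.10.9.

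Exons came from GENCODE 29 by gene identifier; the authors' exon models may differ. Named pairs were the 6 largest called changes in each direction without overlap, opposite pairs, the 5 strongest same-direction pairs, the 4 most abundant antisense, the 4 highest antisense to sense ratios, the 5 largest sense changes without an antisense call, a list of blood regulators, and the rows beside the threshold. Members and lists were chosen with earlier results of these data known. A further 13 pairs (those of SOCS2, MAPKAPK5, PPP1R12A, TMPO, MAST4, SLC2A1, FOXD3, HLA-F, TMEM132D, IDI2, MAP3K14, VPS9D1 and TPT1), the classes of arrangement, the comparison with the nearest gene and the sequences were chosen after values were seen. Count-model tests were planned as alternatives and were not run: each normalized count column holds whole multiples of 1 step, but in 3 columns, whose step lies close to 1, a check of units did not accept whole reads as recovered.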

Additional observations from a re-analysis of the deposited data

How the results depend on the processing

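Of the alternatives for single genes and pairs, 1926 kept direction and call, 127 lost the call, 26 gained it and 52 changed sign. Without a filter on low values, opposite pairs numbered 1 and called differences 26. In the normalized counts 108 sense genes were called higher and 103 lower, with 44 same-direction and 6 opposite pairs. Of all rows tested there 26.4% were called higher and 27.4% lower, against 15.1% and 16.8% in RPKM. Restricted to pairs without shared exonic bases, 11 antisense were higher and 11 lower, 19 sense genes higher and 21 lower, with 10 same-direction pairs, 0 opposite and 15 called differences, from fewer pairs. Replicate numbers did not pair the libraries (correlations of deviations -0.03, 0.0028 and -0.06). With the replicate block, called differences numbered 26, antisense calls 24 higher and 34 lower, sense calls 56 and 57, and same-direction pairs 25 with 3 opposite. Leaving out 1 library gave 21 to 30 antisense higher and 30 to 40 lower, 50 to 62 sense genes higher and 52 to 67 lower, 22 to 28 same-direction pairs, 1 to 5 opposite pairs and 23 to 43 called differences. The exact permutation test cannot go below 0.1.

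Values that changed sign were mostly near 0, and the cause was not tested. With a pseudocount of 1 the within-pair difference was 0.38 for MEF2C, -0.0213 for NADK2, 0.11 for PCED1B and -0.57 for ZNF528, and with 0.01 it was 0.0854 for GATA6. In the normalized counts the GATA6 difference was 1.29, that of GATA2 0.0882, ITGA9-AS1 0.89, THAP9-AS1 -0.0415 and VPS9D1 0.31. With columns rescaled to the same sum ITGA9-AS1 was at 0.0679, THUMPD3-AS1 at 0.022 and TPT1 at 0.0395, and with the same protein-coding median ITGA9-AS1 was at 0.0197. Quantile normalization gave 0.0088 for EFCAB6-AS1, -0.0021 for GATA2-AS1, 0.0334 for ITGA9-AS1, 0.003 for MYB-AS1 and 0.11 for TPT1.

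Leaving out 1 library moved EFCAB6-AS1 from -0.29 to 0.0487, GATA2-AS1 from -0.0191 to 0.0396, GFOD1-AS1 from -1.39 to 1.23, HAND2-AS1 from -0.0885 to 0.41 and ITGA9-AS1 from -0.11 to 0.10. It moved MAP3K14 from -0.006 to 0.12, MELTF-AS1 from -0.30 to 0.96, MYB-AS1 from -0.43 to 0.12, PRRT3-AS1 from -1.16 to 0.56 and THUMPD3 from -0.0506 to 0.0943. TSBP1-AS1 ran from -0.0476 to 0.0509 and ZEB2-AS1 from -0.41 to 0.0845. The within-pair difference ran from -0.58 to 0.35 for GATA6, -0.77 to 0.23 for MEF2C, -0.46 to 0.0512 for MYB, -0.20 to 0.0383 for THUMPD3, -0.0545 to 0.37 for ZEB2 and -0.0379 to 0.16 for ZNF528. Without the 11 pairs with a gene that passed in 1 genotype only, 25 antisense were higher and 36 lower and 50 differences were called. By level, 43 of 174 pairs with an antisense above the median level had a called difference, against 11 of 171 below it; this difference was not tested.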
